A study of Homo sapiens with 6 samples.

Results

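The 10 genes described here encode NF-κB subunits (NFKB1, NFKB2, RELA and RELB), inhibitors of the pathway (NFKBIA, NFKBIE and TNFAIP3), feedback targets (TNFAIP2 and BIRC3) and the ligand TNF. They were chosen by name for these roles, with earlier results of these data known. They are 10 of the 67140 Ensembl identifiers in the deposited table. All 10 passed the filter on low counts, which left 19254 identifiers for testing, but TNF passed only through its shCtrl samples. The cells were KYSE150, a long-established line from a human squamous cell carcinoma of the esophagus, with 3 samples carrying the control hairpin shCtrl and 3 carrying shAC007128.1, a hairpin against the long non-coding RNA AC007128.1. All 6 samples were grown in RPMI medium with fetal bovine serum, and the labels name no stimulus of the pathway and no time point. The hairpin is a single sequence, so an effect of AC007128.1 and any other effect of that hairpin or of that cell population cannot be told apart. The labels do not say whether the 3 samples of a group were separate cultures, so p-values measure only the spread between these samples, which may be technical.

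NF-κB is a family of dimeric transcription factors built from RelA (p65), RelB, c-Rel, p50 (made from NFKB1) and p52 (made from NFKB2). In resting cells IκB proteins such as IκBα (NFKBIA) and IκBε (NFKBIE) hold the dimers in the cytoplasm, until a receptor for TNF, interleukin-1 or a microbial product activates the IκB kinase and the inhibitor is destroyed. The non-canonical branch instead processes the NFKB2 precursor and works through RelB with p52. Many targets of the pathway feed back on it: NFKBIA and the ubiquitin-editing enzyme A20 (TNFAIP3) shut it down, and the ubiquitin ligase cIAP2 (BIRC3) acts below the TNF receptor.

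NF-κB dimers bind a short DNA element, the κB motif, which opens with GGG and closes with CC. The stretches shown here are those of the promoter windows of the members that hold a match, so that the letters can be set beside the RNA levels. The windows are RefSeq's, on GRCh38.p14, and run from 250 bases before to 50 bases after each annotated start site. Both strands were searched, overlapping matches were kept, and 8 of the 10 members were found in the table. Each stretch is given 5′ to 3′ on the strand of its gene, with the matching bases in capitals. The matches of NFKBIA, TNFAIP3 and BIRC3 lie on the strand opposite to the gene, so as shown they open with GG and close with CCC.
NFKB1, chr4:102501300-102501329, plus strand: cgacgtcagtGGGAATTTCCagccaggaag
NFKB2, around the match at chr10:102394500-102394509, plus strand: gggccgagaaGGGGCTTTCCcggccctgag
NFKB2, around the match at chr10:102395529-102395538, plus strand: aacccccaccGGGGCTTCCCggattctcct
NFKB2, around the match at chr10:102395684-102395693, plus strand: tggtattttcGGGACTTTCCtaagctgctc
NFKBIA, chr14:35404811-35404840, minus strand: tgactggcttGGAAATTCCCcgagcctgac
TNFAIP3, chr6:137867182-137867223, plus strand: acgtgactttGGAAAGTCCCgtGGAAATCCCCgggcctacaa
BIRC3, chr11:102317275-102317368, plus strand: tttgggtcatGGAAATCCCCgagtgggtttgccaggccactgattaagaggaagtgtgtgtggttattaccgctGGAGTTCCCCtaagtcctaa

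A match was found for 5 of the 8 members (NFKB1, NFKB2, NFKBIA, TNFAIP3 and BIRC3) and in 6 of their 12 windows. Of all 35116 windows in the table, 11.3% held a match, and of the 11990 tested genes in it, 17.0% did. The match of NFKB1 began 49 bases before its start site and that of NFKBIA 81 bases before it. TNFAIP3 had a pair, 67 and 55 bases before its start. NFKB2 had matches in 2 of its 3 windows, and one of these windows also held an overlapping pair 107 and 106 bases before the start. The windows of RELA, TNFAIP2 and TNF held no match to these letters, which says nothing on whether the factor acts on these genes. A match is a description of the letters and not a measured binding site.

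**Figure D1:**
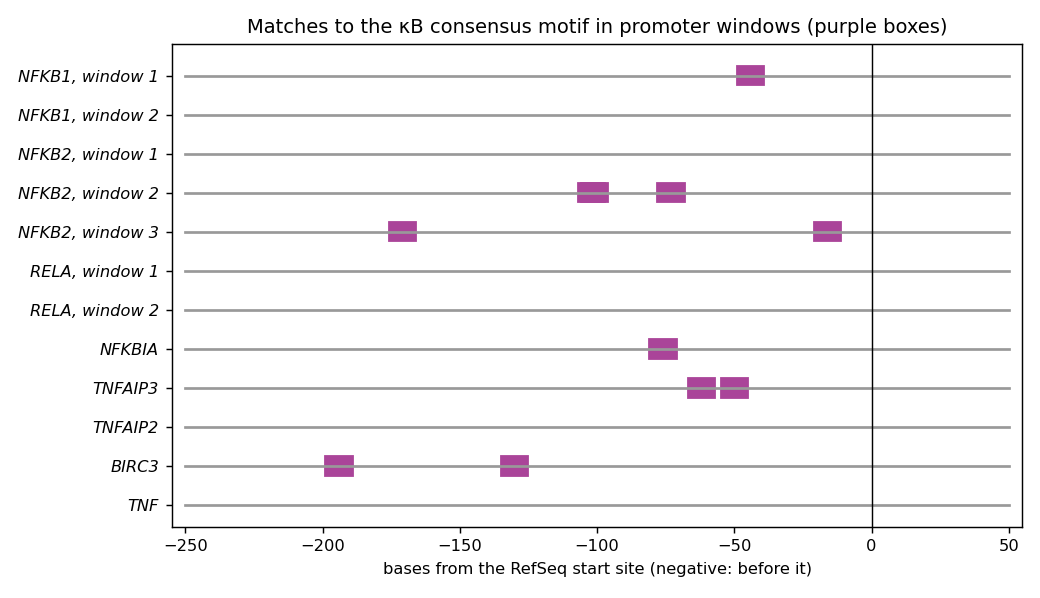
Position of each match to the κB motif in the promoter windows of the 8 members found in the table, in bases from the RefSeq start site; each grey line is 1 window and each purple box 1 match. The matches lie between 199 and 21 bases before the start, and the windows of RELA, TNFAIP2 and TNF are empty.

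Total counts were 55764405 to 78610457 per sample, so that 3 counts, taken as the smallest detectable level, correspond to 0.0382 to 0.0538 CPM (counts scaled to a common library total). This limit covers counting error only. Levels below are CPM after TMM scaling. AC007128.1 (chr7:8262264-8344516, hg38) had 69, 33 and 53 counts in shCtrl and 18, 37 and 15 in shAC007128.1. Its groups overlapped, its log2 fold change was -0.77 (SE 0.51, adjusted p = 0.271, edgeR), and 42.2% of its exonic bases are shared with other annotated genes. The target was therefore not shown to be lower in this table. By qPCR, which is not part of this table, the paper reports that its shRNA lowered AC007128.1. Pearson's r between samples, over the genes tested, was 0.9795 to 0.9812 within shCtrl, 0.9689 to 0.9734 within shAC007128.1 and 0.9404 to 0.949 between the groups, and shAC007128.1 replicate 3 stood farthest from its group in read counts. All 10 squamous epithelial markers were tested, with a summed level of 2350 to 2379 CPM in shCtrl and 3204 to 3866 CPM in shAC007128.1, and 3 of them were called higher and 1 lower. Beside these and the marker counts that follow, 5.57% of all genes tested were called higher and 10.1% lower. Of 10 leukocyte markers, 4 were tested and 1 was called lower, with a summed level of 60.1 to 68.7 CPM in shCtrl and 14.9 to 24.1 CPM in shAC007128.1, and MS4A1 and TYROBP were at 0 in every sample. Nearly all of that sum was CD68, a gene singled out after its values were seen, and 85.6% of its exonic bases are shared with other genes. The defining leukocyte gene PTPRC had 0 to 9 counts. Only 2 of the tested leukocyte markers reached the filter in both groups, with 1 called lower and 0 higher. The 8 fibroblast markers summed to 15.3 to 16.2 CPM in shCtrl and 21.3 to 23.9 CPM in shAC007128.1, with 3 tested, 1 called higher and 1 called lower. The fibroblast marker called lower reached the filter only through its shCtrl samples. Over the 2 that reached it in both groups, 1 was called higher and 0 lower. The 6 endothelial markers summed to 2.34 to 3.23 and 0.587 to 2.02 CPM, with 2 tested and 0 called by edgeR (1 at an unadjusted p under 0.05). The part of these differences in the results was not tested.

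The RNA of RELB, NFKB2, RELA and TNFAIP3 was lower in shAC007128.1 than in shCtrl, and that of no member was higher at the adjusted p of 0.05. RELB fell to 44.5% of its control level, TNFAIP3 to 59.6%, NFKB2 to 70.6% and RELA to 84.3%. The log2 fold change of the other 6 members lay between -0.79 (TNF) and 0.41 (NFKBIA), none past the test. A gene was called when its adjusted p (edgeR's quasi-likelihood test, Benjamini-Hochberg over all genes tested) was at most 0.05 and its log2 fold change at least 1 in size. By this rule 1 member, RELB, was called lower, where 10.1% of all genes tested were, and 0 were called higher by edgeR, where 5.57% of all genes were. At the adjusted p alone, 4 members passed lower and 0 passed higher, against 19.8% and 21.0% of all genes. At an unadjusted p under 0.05 there was 1 higher member, NFKBIA, which also passed by DESeq2. The groups did not overlap for 4 members, the same 4 genes, whereas they did not overlap for 55.2% of all genes tested. The median log2 fold change was -0.26 over the members and -0.02 over all genes tested.

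**Figure D2:**
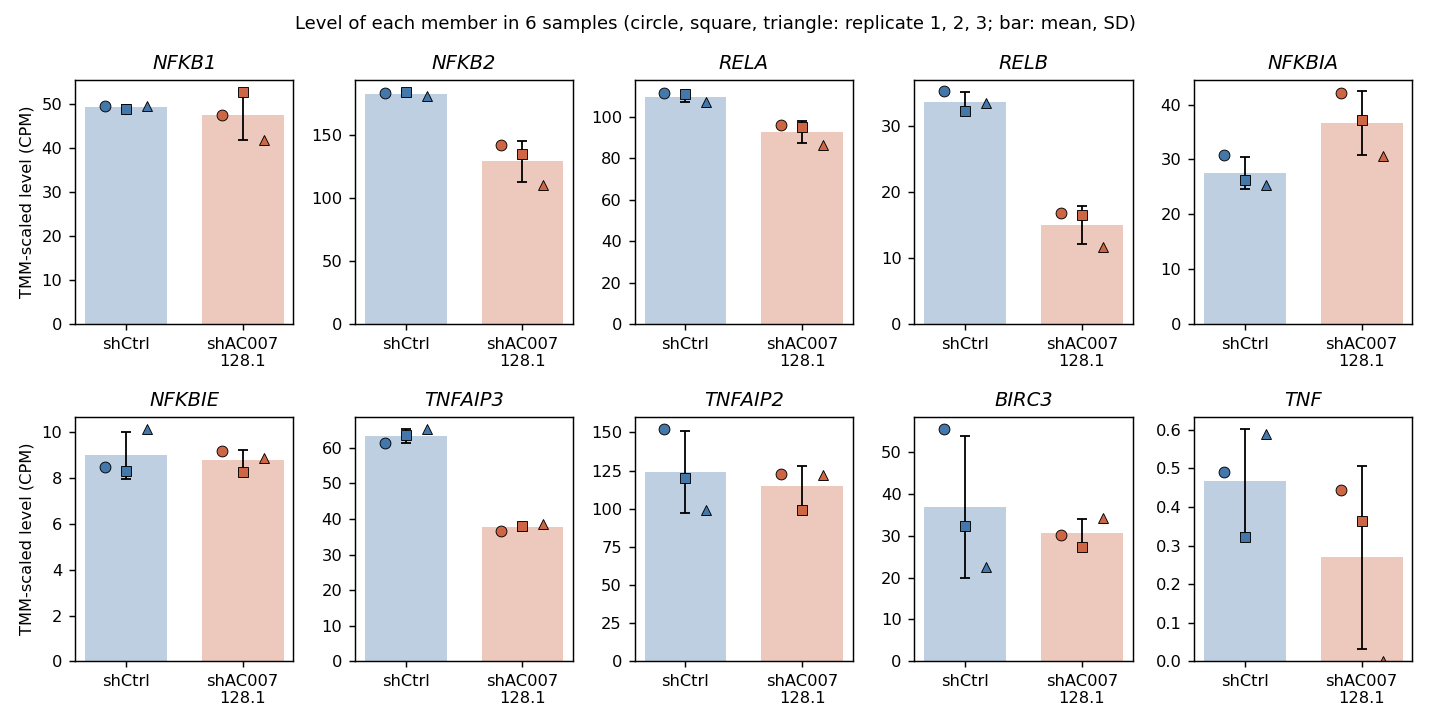
TMM-scaled level (CPM) of each of the 10 members in the 6 samples, 1 panel per gene with its own axis from 0; points are samples (circle, square and triangle for replicates 1, 2 and 3), bars are group means and error bars are SD over 3 samples. The groups are apart for NFKB2, RELA, RELB and TNFAIP3 and overlap in the other 6 panels.

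RELB, the partner of p52 in the non-canonical pathway, lies at chr19:45001461-45038192 on the plus strand (hg38). Its level was 35.2, 32.3 and 33.4 CPM in shCtrl replicates 1, 2 and 3 and 16.7, 16.5 and 11.6 CPM in shAC007128.1 replicates 1, 2 and 3. Every shAC007128.1 sample was below every shCtrl sample, and shAC007128.1 replicate 3 was the lowest of all. The means were 33.6 ± 1.49 and 15.0 ± 2.87 CPM (SD, n = 3 each). The log2 fold change was -1.17 (SE 0.15, 95% interval -1.53 to -0.81, adjusted p = 0.000973, edgeR). It was the only member past both limits of the call, and the interval includes changes smaller than the limit of 1.

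NFKB2, which encodes the p100 precursor of p52, lies at chr10:102394110-102402524 on the plus strand. By group mean it was the most abundant member in CPM, at 182.6, 184.1 and 180.4 CPM in shCtrl and 141.7, 134.4 and 110.4 CPM in shAC007128.1. The shCtrl samples differed from each other by very little (coefficient of variation 1.03%), and the shAC007128.1 samples spread more (12.7%) but lay below all of them. The log2 fold change was -0.50 (SE 0.10, 95% interval -0.74 to -0.27, adjusted p = 0.00637, edgeR). RELB and NFKB2, the pair of the non-canonical branch, were therefore the members of the subunit group with the larger decreases.

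RELA encodes p65, the main activating subunit of the canonical pathway, at chr11:65653599-65663090 on the minus strand. It was at 111.5, 110.8 and 106.9 CPM in shCtrl and at 95.95, 95.2 and 86.4 CPM in shAC007128.1. The groups were apart, but by a margin of only about the size of the spread within shAC007128.1. The log2 fold change was -0.25 (SE 0.07, 95% interval -0.42 to -0.07, adjusted p = 0.0328, edgeR). RELA no longer passed without shCtrl replicate 1, 2 or 3 (adjusted p = 0.109, 0.109 and 0.0732, edgeR) and without shAC007128.1 replicate 2 (adjusted p = 0.0600, edgeR). An opposite-strand lncRNA shares 1.89% of its exonic bases.

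NFKB1, the source of p50, lies at chr4:102501330-102617302 on the plus strand. Its levels were 49.6, 48.9 and 49.5 CPM in shCtrl and 47.7, 52.8 and 41.9 CPM in shAC007128.1, so the shAC007128.1 samples fell on both sides of the control values. Its log2 fold change was -0.06 (SE 0.10, 95% interval -0.29 to 0.18, adjusted p = 0.686, edgeR). The control samples were tighter than for any other member, with a coefficient of variation of 0.763%.

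Because the subunits pair with each other, their levels were also expressed per kilobase of the longest annotated transcript and as a share of the 5 subunit genes, with REL (c-Rel) included. RELB made up 13.7%, 12.7% and 13.4% of the subunit mRNA in shCtrl and 8.22%, 8.45% and 6.98% in shAC007128.1. RELA made up 30.6% ± 0.28 in shCtrl and 34.9% ± 1.68 in shAC007128.1 (SD, n = 3 each). NFKB1 made up 6.24% ± 0.10 and 8.08% ± 0.59 in the same order. The share of RELA was thus larger in shAC007128.1 although its own level was lower, since RELB and NFKB2 were reduced more. NFKB2 remained the largest part in both groups, at 47.6% ± 0.50 and 45.1% ± 1.18. REL was the smallest, at 2.31% ± 0.13 and 4.01% ± 1.14. The ranges of all 5 shares were apart between the groups, and the levels of 55.2% of all genes tested were too. The shares of a sample add up to a fixed total, and the levels of NFKB1 and REL themselves overlapped between the groups. For each of the 5 the two-sided exact permutation test gave p = 0.1, the smallest that 3 samples against 3 allow, and an adjusted p of 0.1. The shares themselves depend on the transcript length used, and their direction did not.

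**Figure D3:**
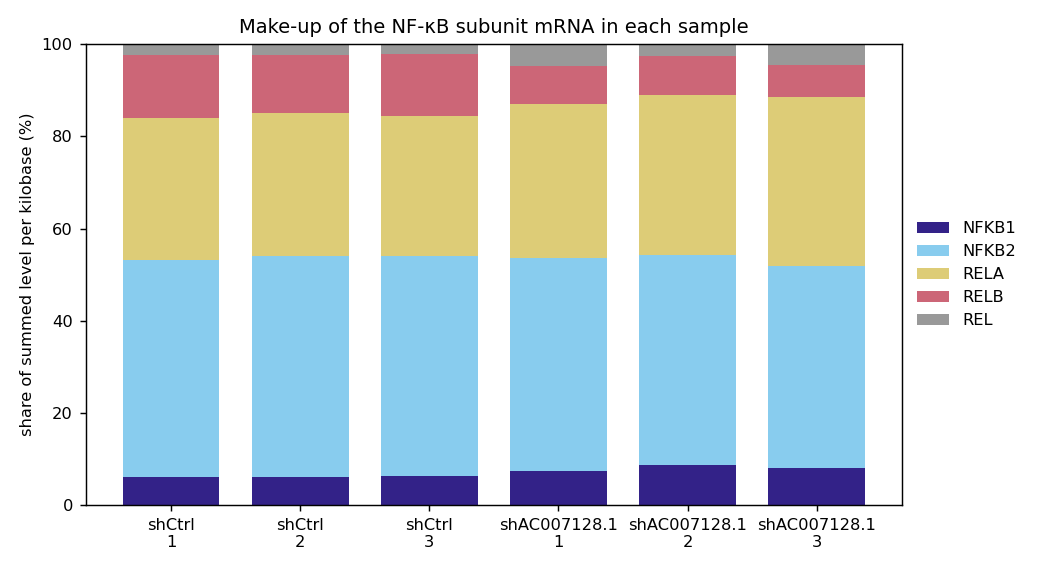
Share of each NF-κB subunit gene in the summed subunit level per kilobase of the longest annotated transcript (%), 1 stacked bar per sample, shCtrl on the left and shAC007128.1 on the right. The RELB segment is 12.7% to 13.7% in the shCtrl bars and 6.98% to 8.45% in the shAC007128.1 bars.

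Among the inhibitors, TNFAIP3 was lower and the IκB genes NFKBIA and NFKBIE did not pass. TNFAIP3 encodes A20, at chr6:137867214-137883314 on the plus strand. It was at 61.2, 63.6 and 65.2 CPM in shCtrl and at 36.6, 38.1 and 38.5 CPM in shAC007128.1. The samples of each group were close together (coefficients of variation 3.15% and 2.75%) and the groups were far apart. The log2 fold change was -0.75 (SE 0.08, 95% interval -0.92 to -0.57, adjusted p = 0.000324, edgeR), which was the smallest p of the 10 members. The interval lies wholly inside the limit of 1, so TNFAIP3 passed the test without being called. An opposite-strand lncRNA shares 1.47% of its exonic bases.

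NFKBIA encodes IκBα, which is made anew after activation and carries the dimers out of the nucleus. It lies at chr14:35401079-35404749 on the minus strand. Its level was 30.8, 26.3 and 25.4 CPM in shCtrl and 42.1, 37.1 and 30.6 CPM in shAC007128.1. The groups overlapped by a narrow margin, with shAC007128.1 replicate 3 just under shCtrl replicate 1. Its log2 fold change was 0.41 (SE 0.14, 95% interval 0.08 to 0.74) and the adjusted p of 0.0512 (edgeR) missed the threshold. It was the only member with a log2 fold change above 0. Without shAC007128.1 replicate 3 it was 0.52 (adjusted p = 0.0130, edgeR), and over 16 fits the adjusted p ran from 0.0130 to 0.163 with 5 of them passing.

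NFKBIE, the gene of IκBε, lies at chr6:44258166-44265788 on the minus strand. It was at 8.50, 8.32 and 10.2 CPM in shCtrl and at 9.20, 8.28 and 8.86 CPM in shAC007128.1, and the groups overlapped nearly completely. Between the groups the log2 fold change was -0.03 (SE 0.14, 95% interval -0.36 to 0.29, adjusted p = 0.865, edgeR). Of the 3 inhibitors, 1 passed lower and 0 higher by edgeR (1 and 1 at an unadjusted p under 0.05), beside 19.8% and 21.0% of all genes, so nothing is read from this count.

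Of the feedback targets, BIRC3 and TNFAIP2 varied more within shCtrl than any other member with over 1 CPM. BIRC3 (cIAP2, chr11:102317484-102339403, plus strand) was at 55.5, 32.3 and 22.4 CPM in shCtrl and at 30.1, 27.3 and 34.2 CPM in shAC007128.1. All shAC007128.1 values lay within the range of the controls, whose coefficient of variation was 46.2%. Between the groups the log2 fold change was -0.27 (SE 0.30, 95% interval -0.97 to 0.44, adjusted p = 0.520, edgeR). Without shCtrl replicate 1, the highest sample, it was 0.15. These samples therefore cannot show a change of BIRC3 within about that interval.

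TNFAIP2, a TNF-induced gene at chr14:103121476-103137439 on the plus strand, was at 152.4, 119.9 and 99.4 CPM in shCtrl. It was at 122.5, 98.9 and 122.3 CPM in shAC007128.1. The groups overlapped, and shCtrl replicate 1 was again the highest sample. Its log2 fold change was -0.11 (SE 0.16, 95% interval -0.50 to 0.27, adjusted p = 0.620, edgeR), and it was 0.06 without shCtrl replicate 1. The coefficient of variation within shCtrl was 21.6%.

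TNF, the founding ligand of the pathway, lies at chr6:31575565-31578336 on the plus strand and had the lowest level of the members. It had 36, 26 and 40 counts in shCtrl and 25, 20 and 0 in shAC007128.1. In CPM these were 0.492, 0.323 and 0.590 in shCtrl and 0.445, 0.364 and 0 in shAC007128.1, where the 0 of replicate 3 allows a level of up to 0.0499 CPM by raw total. Replicates 1 and 2 of shAC007128.1 lay among the control values and replicate 3 lay apart from all. Its log2 fold change was -0.79 (SE 0.98, 95% interval -3.09 to 1.51, adjusted p = 0.557, edgeR), and without shAC007128.1 replicate 3 it was -0.22. No difference was detectable in these samples.

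**Figure D4:**
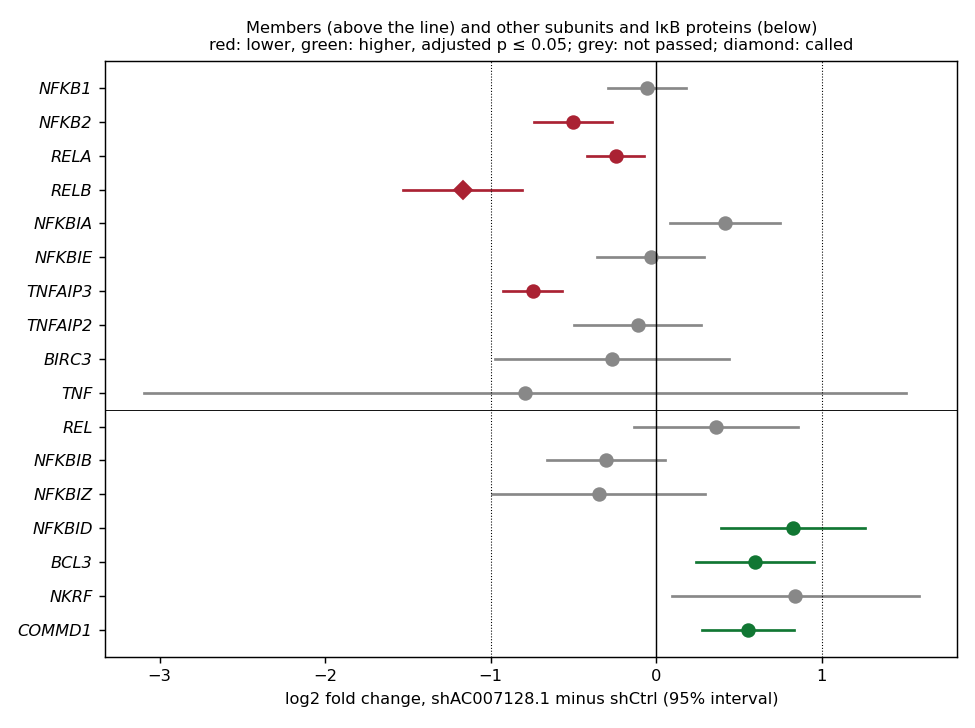
Log2 fold change (shAC007128.1 minus shCtrl) with its 95% interval from edgeR for the 10 members above the line and 7 other subunit, IκB and regulator genes (COMMD1 and NKRF are the regulators) below it; red and green mark genes lower and higher at an adjusted p of at most 0.05, the diamond marks RELB, the only gene called, and dotted lines mark the fold limit of the call. RELB is at -1.17, TNFAIP3 at -0.75 and NFKBIA at 0.41, while the interval of TNF is the widest.

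On the scale of level per kilobase of the longest annotated transcript, which allows genes to be compared, the members of shCtrl ran in the following order. NFKB2 was first at 53.5 ± 0.55 CPM per kilobase (SD, n = 3), followed by RELA at 34.5 ± 0.78 and TNFAIP2 at 26.2 ± 5.65. RELB was at 14.9 ± 0.66, TNFAIP3 at 11.7 ± 0.37 and NFKBIA at 10.7 ± 1.13. Lower down were NFKB1 at 7.01 ± 0.05, BIRC3 at 5.34 ± 2.47, NFKBIE at 3.48 ± 0.39 and TNF at 0.279 ± 0.080. The ranges of neighbours were apart in 6 of the 9 steps, and they overlapped between TNFAIP3 and NFKBIA, between NFKB1 and BIRC3, and between BIRC3 and NFKBIE. In shAC007128.1 the first 3 places were the same. NFKBIA then came next at 14.3 ± 2.26 CPM per kilobase, and RELB came only in place 7 at 6.63 ± 1.27, near TNFAIP3 at 6.95 ± 0.19 and NFKB1 at 6.74 ± 0.78. Places in this order depend on the length used. With all exons joined TNFAIP2 (24.5) came above RELA (20.1), and with the Ensembl canonical transcript NFKBIA (17.6) came above RELB (14.9) and TNFAIP3 (13.6). For NFKB1 the level in shCtrl was 3.15 CPM per kilobase of all exons joined and 12.2 per kilobase of the Ensembl canonical transcript.

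The promoter letters and the RNA levels can be set side by side for 8 members. Of the 5 with a κB match, NFKB2 and TNFAIP3 were lower, while NFKB1, NFKBIA and BIRC3 did not pass. Of the 3 without one, RELA was lower and TNFAIP2 and TNF did not pass. Over all genes in the promoter table, a match was held by 207 of 1148 genes called lower, 110 of 727 called higher and 2033 of all 11990 tested genes.

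The list of 7 other subunit, IκB and regulator genes gave 3 that passed higher and 0 that passed lower by edgeR. COMMD1 and NKRF on this list encode neither a subunit nor an IκB protein. At an unadjusted p under 0.05 there were 4 and 0, and 0 were called. Over all genes tested, 21.0% passed higher and 19.8% lower. Those that rose were NFKBID (log2 fold change 0.82, adjusted p = 0.0105, edgeR), BCL3 (0.60, adjusted p = 0.0171) and COMMD1 (0.55, adjusted p = 0.00838). NFKBID and BCL3 encode atypical nuclear IκB proteins that work on p50 or p52 dimers, and COMMD1 promotes the turnover of RelA. BCL3 was at 20.9, 17.7 and 16.1 CPM in shCtrl and at 29.0, 30.8 and 23.0 CPM in shAC007128.1. REL had a log2 fold change of 0.36 (adjusted p = 0.215, edgeR), with 33.3% of its exonic bases shared with another gene. Of the exonic bases of COMMD1 38.2% are shared with other genes, most of them on the same strand, and of those of NKRF 21.0%. The remaining values were -0.31 for NFKBIB (adjusted p = 0.152, edgeR), -0.35 for NFKBIZ (adjusted p = 0.353) and 0.84 for NKRF (adjusted p = 0.0709). The median of this list was 0.55, which is the value of COMMD1. BCL3 no longer passed without shCtrl replicate 2 or 3 or without shAC007128.1 replicate 2 (adjusted p = 0.0635, 0.0672 and 0.0539, edgeR).

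Upstream of the members are the ligands. Of 17 ligands of the receptors that signal to NF-κB, TNF not counted, 10 were tested, and 6 were called lower and 1 higher, where 10.1% and 5.57% of all genes were. Their median log2 fold change was -1.59. Of these 10, 4 reached the level of the filter in all samples of 1 group only, so their place in the count is not independent of their direction. Among the other 6, 4 were called lower and 1 higher, with a median of -1.54. IL1B was at 206.1 to 209.9 CPM in shCtrl and at 32.4 to 36.1 CPM in shAC007128.1 (log2 fold change -2.62), and IL1A was at 290.4 to 297.2 and 35.1 to 46.6 CPM (-2.88). These are the classic interleukin-1 ligands of the canonical pathway, and their ranges were far apart. TNFSF15 (-1.42) and LTB (-1.66) were also called lower, LTB, the lymphotoxin-β that signals to the non-canonical branch, from under 1.1 CPM. TNFSF9 rose, from 25.8 to 27.5 CPM in shCtrl to 54.9 to 73.6 CPM in shAC007128.1 (log2 fold change 1.30).

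Of 25 receptors, 20 were tested, and 3 were called lower and 0 higher by edgeR. At the adjusted p alone 6 receptors passed lower and 2 higher, with a median log2 fold change of -0.25. Over all genes tested, 10.1% were called lower and 5.57% higher, and 19.8% passed lower and 21.0% higher. TNFRSF12A (Fn14, the receptor for TWEAK) was at 216.9 to 217.4 CPM in shCtrl and at 48.7 to 87.9 CPM in shAC007128.1 (log2 fold change -1.63), and TNFRSF9 had a log2 fold change of -2.47. TLR5 had -1.26 (adjusted p = 0.0261, edgeR), with adjusted p = 0.0891 without shCtrl replicate 3, 0.0559 without shAC007128.1 replicate 1 and 0.0673 without shAC007128.1 replicate 3. Of 26 adaptors and ubiquitin ligases, all tested, 3 were called lower and 0 higher by edgeR, while 8 passed lower and 6 higher at the adjusted p alone. Beside the same shares of all genes, nothing is read from these counts. TRAF1, an adaptor of TNF receptors, was at 29.6 to 34.9 CPM in shCtrl and at 6.25 to 8.79 CPM in shAC007128.1 (-2.06). RBCK1, a subunit of the linear ubiquitin ligase, had -1.28. TRAF3, which restrains the non-canonical kinase, had -1.14, with 77.9 CPM in shCtrl replicate 3 against 35.7 and 32.4 CPM in shCtrl replicates 1 and 2. Without that sample it was -0.63, below the fold limit, and the adjusted p rose to 0.0987, 0.0557 and 0.0902 (edgeR) when shAC007128.1 replicate 1, 2 or 3 was left out.

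Of 14 genes of the IκB kinase complex and the kinases above it, 0 were called by edgeR, 3 passed higher and 1 lower, and the median was -0.05. The 3 with the smallest p were MAP3K3 (log2 fold change 0.78), CHUK, which encodes the kinase subunit IKKα (0.45), and MAP3K7, which encodes TAK1 (0.30). All 3 were higher, and the gene that passed lower had a larger p and is not among those the rule names. CHUK did not pass when any 1 shCtrl sample was left out (adjusted p = 0.0724, 0.0575 and 0.0689, edgeR). MAP3K7 passed in 9 of 16 fits. Among 15 tested deubiquitinases and other brakes, a list that does not include TNFAIP3, 1 was called lower and 0 higher by edgeR. Of these 15, 6 passed higher and 2 lower, and the median was 0.26. Over all genes tested, 10.1% were called lower and 5.57% higher, and 19.8% passed lower and 21.0% higher. RNF11, a partner of A20, fell from 110.6 to 112.2 CPM in shCtrl to 35.9 to 43.6 CPM in shAC007128.1.

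Downstream, 39 of 40 classic NF-κB target genes were matched to the table and 28 were tested. Of these, 6 were called lower and 0 higher by edgeR, while 9 passed lower and 3 higher, with a median of -0.28. Over all genes tested, 10.1% were called lower and 5.57% higher, and 19.8% passed lower and 21.0% higher. LCN2 (lipocalin-2) was at 48.1 to 51.6 CPM in shCtrl and at 5.41 to 5.80 CPM in shAC007128.1 (log2 fold change -3.13). IL6 was at 27.8 to 29.4 and 4.38 to 4.85 CPM (-2.64), and F3, the coagulation factor receptor, at 625.0 to 629.9 and 237.4 to 269.5 CPM (-1.32). SDC4 lay at the limit of the call, with log2 fold changes of -1.07 to -0.97 over 16 fits. The targets named here are the called ones with the smallest p, and all of them were lower. The 3 that passed higher were not called and are not among those the rule names. Of the 28 tested targets, 16 did not pass. No member of the core 10 changed by as much as LCN2, IL6, IL1A or IL1B, which were picked from longer lists. The p-values of LCN2, IL6, F3, SDC4, IL1A, IL1B, TNFSF9, TNFSF15, TRAF1, RBCK1, RNF11 and TNFRSF12A were below 0.05 after adjustment in all 16 fits. The run against a fold of 1.5 (glmTreat) is not among these 16.

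The lists can be set beside the members and the background. The members had 4 of 10 genes past the test, all lower, and 40.8% of all genes tested passed in either direction. The list of other subunits and IκB proteins, with COMMD1 and NKRF, had 3 of 7. The receptors had 8 of 20, the ligands 7 of 10 and the adaptors 14 of 26. Over the 6 ligands that reached the filter in both groups, 4 passed lower and 1 higher. The kinases had 4 of 14, the brakes 8 of 15 and the classic targets 12 of 28. The share of the members was thus near the background. As these are bulk samples, fewer cells expressing a gene and less RNA of it per cell cannot be told apart. The members and lists were chosen with earlier results of these data known, so these shares only describe them. No difference between the lists was tested.

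**Figure D5:**
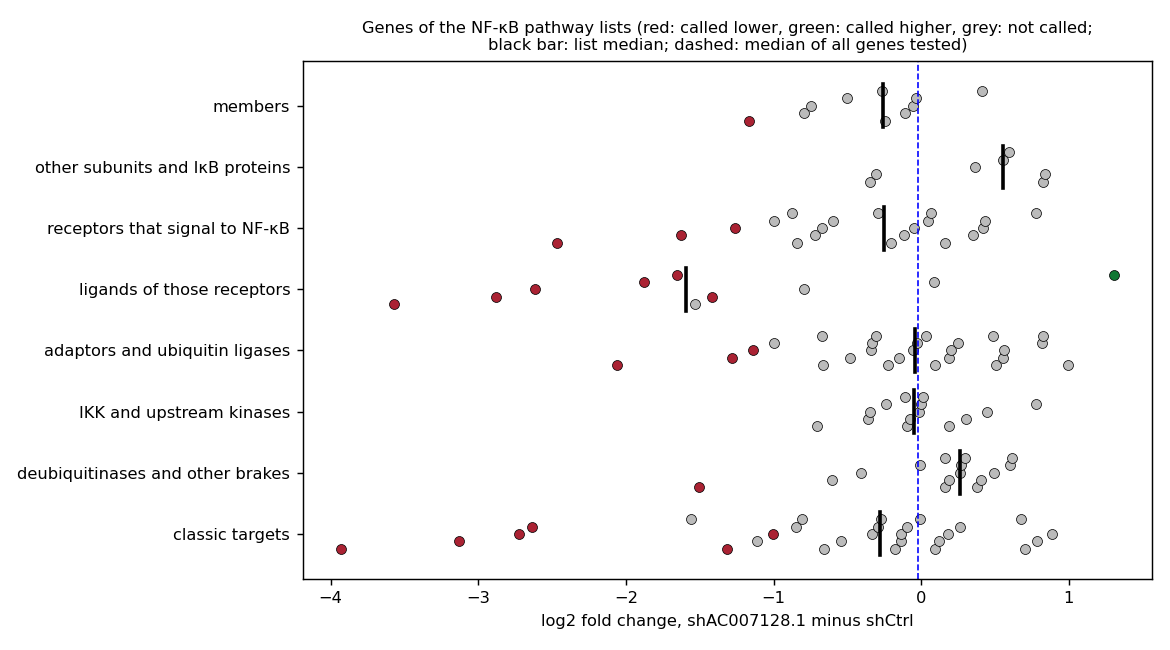
Log2 fold change (shAC007128.1 minus shCtrl) of every tested gene in the 8 lists; red points were called lower, green called higher and grey were not called, the black bar is the list median and the dashed line the median of all genes tested (-0.02). The ligand median lies at -1.59 and the member median at -0.26. That of the list of other subunits and IκB proteins, which includes COMMD1 and NKRF, lies at 0.55. Over the 6 ligands that reached the filter in both groups the median is -1.54.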

How the data were processed

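Poly-A RNA of 3 shCtrl and 3 shAC007128.1 samples of KYSE150 cells was read as paired-end TruSeq libraries on an Illumina NovaSeq instrument. The authors filtered out rRNA, adapter and low-quality reads, mapped the rest to hg38 with TopHat and made FPKM values with Cufflinks (processing notes of the submitters: CASAVA 1.8, TopHat2 2.0.6). The values used here are estimated counts per Ensembl gene, deposited by the authors as whole numbers without normalization. The counting program, annotation and use of strand are not given in the sources used here. Small counts show an excess at 4, with 1355 genes at 4 counts in shCtrl replicate 1 beside 761 at 3 and 993 at 5. In the labels the treatment text is the same for both groups, so groups and replicate numbers were taken from the titles and descriptions. All columns were matched to samples.

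The function filterByExpr took out 47886 identifiers. The rest were scaled with TMM factors and tested by glmQLFit and glmQLFTest (edgeR 4.0.16, R 4.3.3), with p-values adjusted by Benjamini-Hochberg over all 19254 genes tested. The fold limit of 2 and the FDR of 0.05 follow the study's methods. The standard error (SE) is the size of the log2 fold change over the square root of F, and intervals are 95%. The test steps were tested on simulated counts. Positions and lengths are from GENCODE v44 on hg38, which holds 89.9% of the identifiers, and promoter windows are from RefSeq on GRCh38.p14.

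The members and the gene lists were chosen with earlier results of these data known. Named are the members, AC007128.1 and all tested genes of the list of other subunits and IκB proteins, which includes COMMD1 and NKRF. From each further pathway list come the 4 called genes with the smallest p in each direction. Where none was called, the 3 tested genes with the smallest p are named. SOD2, on the target list, was not analysed here, and the values of some marker genes are not reported. Alternatives were DESeq2 1.42.0, limma-voom (limma 3.58.1), DESeq2 size factors or library size only in edgeR, a run with no filter, a filter of 10 counts in each sample, a replicate block, each sample left out, counts divided by 4, libraries thinned to the smallest total, glmTreat against a fold of 1.5, no fold limit, other gene lengths and another motif. The canonical transcript length, the other lengths for the subunit shares the alternatives for genes named from the lists and the list counts over genes that reach the filter in both groups were added after seeing the data.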

Additional observations from a re-analysis of the deposited data

How the results depend on the processing

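NFKB2, RELB and TNFAIP3 passed at an adjusted p of 0.05 in 16 of 16 fits, with log2 fold changes of -0.58 to -0.41, -1.26 to -1.03 and -0.82 to -0.73. These 16 fits do not include glmTreat, which tests against a fold of 1.5. RELA passed in 11. With each sample left out in turn, the log2 fold change was -0.28 to -0.21 for RELA, 0.30 to 0.52 for NFKBIA, -0.14 to 0.017 for NFKB1, -0.091 to 0.058 for NFKBIE, -0.25 to 0.060 for TNFAIP2 and -0.53 to 0.15 for BIRC3. With the replicate block RELA was at -0.25 (adjusted p = 0.0675, edgeR). NFKBIA passed in 5 fits, at 0.40 by DESeq2 (adjusted p = 0.0250), 0.41 with the replicate block (adjusted p = 0.0323, edgeR), 0.39 with counts divided by 4 (adjusted p = 0.0492), 0.42 with thinned libraries (adjusted p = 0.0439) and 0.52 without shAC007128.1 replicate 3, so that 1 member in place of 0 was higher in each of these. Signs turned for NFKB1 (0.017 without shAC007128.1 replicate 3), NFKBIE (0.058 without shCtrl replicate 3 and 0.0087 without shAC007128.1 replicate 2), TNFAIP2 (0.060 without shCtrl replicate 1) and BIRC3 (0.15 without shCtrl replicate 1), none past the test. Without a fold limit 4041 genes were higher and 3820 lower, and 4 members were lower in place of 1. Shares of subunit mRNA in shCtrl moved with the length: with all exons joined NFKB1 was 4.57%, RELA 29.2%, RELB 16.3% and REL 2.48%, and with the canonical transcript, chosen after seeing the data, NFKB1 was 9.10%, NFKB2 45.2%, RELA 32.6%, RELB 11.1% and REL 1.97%.

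Same-numbered samples did not deviate together (correlations of 0.031, -0.025 and -0.030), so the numbers were not read as pairs. TNF has no value under the stricter minimum of 10 counts or after dividing by 4, since it was filtered out there. Its 0 to 40 counts and the spread of BIRC3 and TNFAIP2 within shCtrl limit what can be said of them.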
